A study of Canis lupus familiaris with 12 samples.

Results

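This report describes 4 dog genes of the tumour necrosis factor (TNF) superfamily and its receptors: the ligands TNF, LTB and TNFSF10 and the receptor CD40. Within these genes the probes were taken by annotation alone, but the genes themselves were chosen with earlier results of these data known. Every non-control probe whose identifier was a RefSeq transcript of 1 of these genes was kept, which gave 7 of the 43603 probes on the array and 4 of the 944 genes that could be named. The cells were Madin-Darby canine kidney (MDCK) cells, an established epithelial line from dog kidney tubule, unmodified in both groups. They had been grown to confluence and moved to serum-free medium a day before the experiment. They then spent 24 h at pH 7.0, in medium acidified through a lower bicarbonate content, or at the control pH of 7.4. There were 3 biological replicates, extracted on separate dates, and each gave 1 RNA per pH, which was hybridised to 2 one-colour arrays. The biological replicates were separate extractions of 1 cell line, so p-values refer to variation between those extractions only. In RNA from a whole culture, more cells that express a gene and more transcript per cell cannot be told apart.

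TNF superfamily ligands are trimeric proteins, made at the cell membrane and often released from it, that cluster receptors on a neighbouring cell. TNF acts through its receptors on NF-kappaB, a family of transcription factors that switch on chemokine, adhesion and survival genes. LTB, lymphotoxin beta, anchors lymphotoxin alpha to the membrane and signals through the lymphotoxin beta receptor. TNFSF10, also called TRAIL, binds death receptors that can start apoptosis through caspase 8. CD40 binds CD40LG, which activated T cells display, and tubule epithelium that is engaged through CD40 is known to release chemokines. In the annotation of the dog assembly UU_Cfam_GSD_1.0, TNF and LTB are neighbours on 1 chromosome with 0 annotated genes between them. No coordinates are given because the array files name no genome build.

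Values below are log2 signals minus the 75th percentile of their array, so that 0 is the level of a probe at that percentile. A change is the log2 value at pH 7.0 less that at pH 7.4 of the same biological replicate. The estimate and its standard error come from a limma fit over all tested probes with the biological replicate as a block (n = 3 pairs of RNAs). The 4 arrays of a biological replicate shared 1 slide and 1 scan date. The share of probes called well above background ran from 49.4% to 70.4% over the arrays, and the lowest shares, up to 54.1%, were those of biological replicate 2. Of 7 kidney tubule markers that could be named, 4 were well above background on all 12 arrays (among them the junction genes OCLN, CGN and TJP1), while UMOD, the marker of the thick ascending limb, was on 0. CLDN2 was so on 5 pH 7.0 and 3 pH 7.4 arrays, and AQP1 on 4 and 1. The estimate of CLDN2 was 1.15 ± 0.29 (limma adjusted p = 0.174). The summed tubule level, relative to the 75th percentile, lay between 23.3 and 43.0 at pH 7.0 and between 21.4 and 35.7 at pH 7.4. Of 6 leukocyte markers, CD163, MS4A1 and NCAM1 were well above background on 0 arrays, S100A8, which epithelia can also make, on all 12, CD8A on 4 pH 7.0 and 3 pH 7.4 arrays, and CD4 on 3 and 2. The summed leukocyte level, relative to the 75th percentile, lay between 0.197 and 0.285 at pH 7.0 and between 0.154 and 0.346 at pH 7.4. Those ranges overlapped. Of 6 fibroblast and endothelium markers, COL1A1, COL1A2 and VWF were well above background on all 12 arrays. PDGFRB was so on 5 pH 7.0 and 5 pH 7.4 arrays, KDR on 1 and 2, and DCN on 0 and 1. The summed level of the 6 lay between 2.63 and 6.19 at pH 7.0 and between 3.22 and 4.06 at pH 7.4. The part of such markers in the results was not tested.

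CD40, the receptor, was higher at pH 7.0 in all 3 biological replicates by both of its probes. CD40 probe a (A_11_P0000019708) stood at 3.72, 4.28 and 4.63 at pH 7.0 in biological replicates 1, 2 and 3, and at 3.09, 2.81 and 4.15 at pH 7.4. Within each replicate the pH 7.0 RNA was the higher one, but the groups overlapped, since the pH 7.4 RNA of biological replicate 3 lay above the pH 7.0 RNA of biological replicate 1. CD40 probe b (A_11_P051116) stood at 0.36, 0.76 and 1.65 at pH 7.0 and at -0.46, -0.45 and 1.03 at pH 7.4. The groups overlapped here too, as they did for all 7 member probes, while 4.48% of tested probes were higher without overlap. Within each replicate both pH 7.0 arrays lay above both pH 7.4 arrays. That separation held in 4.30% of all tested probes, and the reverse, which no member probe showed, in 3.78%. For CD40 probe a it held in 2 of the 3 replicates, because the duplicate arrays of biological replicate 3 interleaved (4.30 and 4.96 at pH 7.0, 3.87 and 4.44 at pH 7.4).

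The changes of CD40 probe a in biological replicates 1, 2 and 3 were 0.63, 1.47 and 0.47, and those of probe b were 0.82, 1.21 and 0.62. Both probes gave the same order, with biological replicate 2 the largest and biological replicate 3 the smallest, and they differed by at most 0.25 within a replicate. The limma estimate was 0.86 ± 0.26 for probe a, which is 1.81-fold with a 95% interval from 1.21 to 2.70. It was 0.88 ± 0.23 for probe b, 1.85-fold with an interval from 1.29 to 2.64. Neither passed over all probes (limma adjusted p = 0.233 and 0.187), although both had an unadjusted p under 0.05 (0.00825 and 0.00357 in limma). Of the 6 member probes tested, these were the 2 that did so on the higher side, against 6.48% of all 27136 tested probes, and none did so on the lower side, against 5.77%. Both probes match the same transcript, so they stand for 1 gene, and it was picked with earlier results of these data known. At an adjusted p under 0.05, limma called 0.00% of probes in either direction, so at that threshold no gene of the array stood out. The lowest limma adjusted p, 0.0502, was that of the growth factor gene CSF2, just over the threshold. With the 12 arrays kept apart and the RNA as a random block, probe b passed (limma adjusted p = 0.0144) and probe a did not (0.0798), and that fit called 396 probes higher and 294 lower. It took duplicates of an RNA as correlated at 0.164, so these technical duplicates counted largely as separate samples. Without biological replicate 2 the estimate of probe a was 0.55 (adjusted p = 0.636), more than 1.5 times below the value from all 3 replicates. An exact permutation test over the 3 pairs gave a two-sided p of 0.25 for either probe, which is the smallest that 3 pairs can give.

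**Figure D1:**
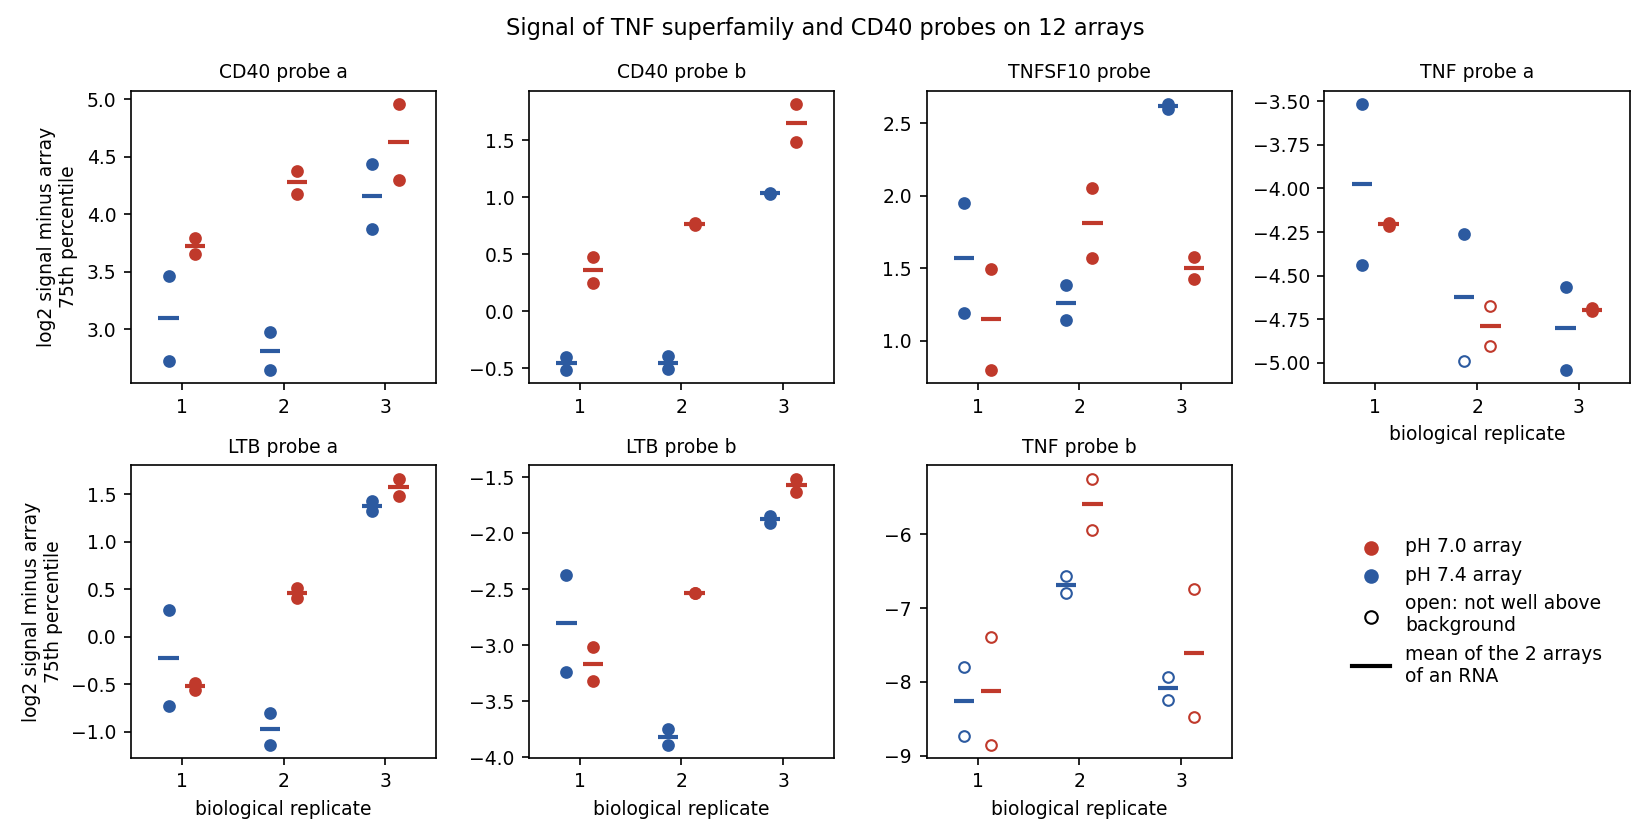
Log2 signal minus the 75th percentile of the array (y axis) in each biological replicate (x axis) for the 7 member probes, with 1 point per array and a bar at the mean of the 2 arrays of an RNA; open points were not well above background. Both CD40 probes are higher at pH 7.0 (red) than at pH 7.4 (blue) within each replicate, and LTB is highest in biological replicate 3 at either pH.

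LTB, which anchors lymphotoxin to the membrane, was higher at pH 7.0 in biological replicates 2 and 3 and lower in biological replicate 1, and it did not pass the test. LTB probe a (A_11_P090646) was at -0.52, 0.46 and 1.57 at pH 7.0 and at -0.22, -0.97 and 1.38 at pH 7.4 in biological replicates 1, 2 and 3. The RNAs of biological replicate 3 were the highest at both pH values, and the groups overlapped. LTB probe b (A_11_P050361) was at -3.16, -2.53 and -1.57 at pH 7.0 and at -2.80, -3.81 and -1.87 at pH 7.4. Averaged over the pH values, probe a spanned 1.85 log2 units between biological replicates, more than 94.4% of tested probes, and probe b spanned 1.45, more than 86.5%. That span was wider than the estimated difference between pH values, as it also was for both CD40 probes (0.98 and 1.39). The estimate for LTB was 0.44 ± 0.32 for probe a (limma adjusted p = 0.629, 95% interval from -0.27 to 1.15) and 0.41 ± 0.31 for probe b (adjusted p = 0.645, interval from -0.28 to 1.10).

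By biological replicate, the changes of LTB probe a were -0.30, 1.42 and 0.20, and those of probe b were -0.36, 1.28 and 0.31. The probes agreed in sign in each replicate, and over the 6 RNAs their values correlated at r = 0.98. Without biological replicate 2, probe a was at -0.050 and probe b at -0.029. In biological replicate 1 the size and sign of the change depended on which pH 7.4 duplicate was used. There the pH 7.4 duplicates of probe a were at 0.28 and -0.73, and the pH 7.0 duplicates, at -0.48 and -0.56, lay between them. Without pH 7.4 array 1 the change of that replicate was 0.21 for probe a and 0.069 for probe b, and without pH 7.4 array 2 it was -0.80 for either probe. The estimates over all replicates were 0.61 and 0.55 in the first case (limma adjusted p = 0.353 and 0.379) and 0.27 and 0.26 in the second (0.883 for either).

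**Figure D2:**
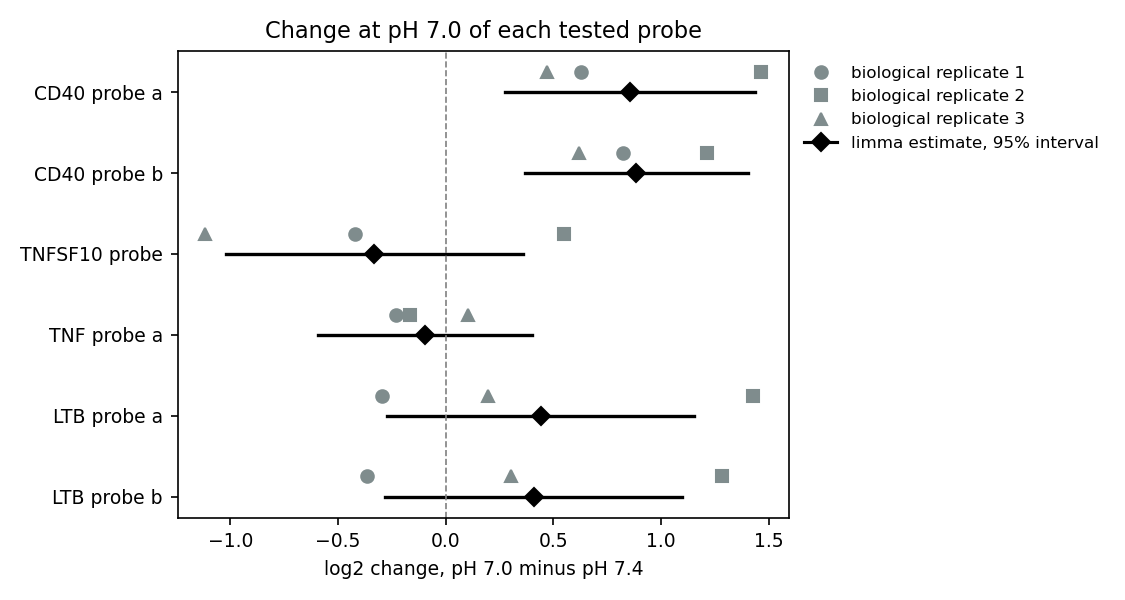
Log2 change, pH 7.0 minus pH 7.4 (x axis), of the 6 tested member probes (y axis), with a grey marker per biological replicate and a black diamond with its 95% interval for the limma estimate. The intervals of both CD40 probes lie above 0, while those of the LTB, TNFSF10 and TNF probes include it.

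TNFSF10, the death receptor ligand TRAIL, moved in opposite directions in different replicates. Its only probe (A_11_P00000756) was at 1.15, 1.81 and 1.50 at pH 7.0 and at 1.57, 1.26 and 2.62 at pH 7.4 in biological replicates 1, 2 and 3. The highest RNA was that of biological replicate 3 at pH 7.4, where both duplicates, at 2.63 and 2.60, lay above every other array. The changes were -0.42, 0.55 and -1.12. In biological replicate 3 both pH 7.0 arrays were below both pH 7.4 arrays, and in biological replicate 2 both were above. In biological replicate 1 the duplicates of each RNA differed by 0.70 and 0.76 log2 units and interleaved. There the change was -0.075 when pH 7.0 array 1 was dropped and -0.77 when its duplicate was, and it was -0.046 when pH 7.4 array 1 was dropped and -0.80 when its duplicate was. The limma estimate was -0.33 ± 0.31 (adjusted p = 0.722, 95% interval from -1.02 to 0.36), and it was 0.062 without biological replicate 3 and -0.77 without biological replicate 2 (limma adjusted p = 0.984 and 0.359). As a ratio of pH 7.0 to pH 7.4, that interval ran from 0.492 to 1.28. No tested member probe was lower in all 3 replicates, as 15.7% of tested probes were.

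TNF itself was close to the detection limit of the array. TNF probe a (A_11_P000001224) reached the level called well above background on 4 of the 6 pH 7.0 arrays and 5 of the 6 pH 7.4 arrays, and the arrays that fell short were all of biological replicate 2. Its processed signal lay between 16.1 and 64.3 intensity units over the 12 arrays. It was at -4.21, -4.79 and -4.70 at pH 7.0 and at -3.98, -4.62 and -4.80 at pH 7.4, and the groups overlapped. The changes were -0.23, -0.16 and 0.11, with an estimate of -0.096 ± 0.22 (limma adjusted p = 0.908, 95% interval from -0.59 to 0.40). Its sign turned when single arrays were dropped, to 0.057 for pH 7.4 array 1 and 0.026 for pH 7.4 array 3. TNF probe b (A_11_P055276) was well above background on 0 of 12 arrays, with signals between 1.78 and 10.8 intensity units, so it was not tested and no fold is given for it. As a ratio of pH 7.0 to pH 7.4, the 95% interval of probe a ran from 0.663 to 1.32.

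Duplicate arrays of 1 RNA gave the measurement error of each probe. Their mean absolute difference over the 6 RNAs was 0.13 for CD40 probe b, a value below which only 3.69% of tested probes lay. It was 0.44 for CD40 probe a, 0.39 for TNFSF10, 0.40 for TNF probe a, 0.31 for LTB probe a and 0.25 for LTB probe b, around the median over tested probes of 0.35. The RNA with the widest duplicate differences was pH 7.4 of biological replicate 1, with a median absolute difference of 0.47 over the tested probes against 0.17 to 0.39 in the other 5 RNAs. On its first array, 5 of the 6 tested member probes read higher than on its second, by 0.74 for CD40 probe a, 0.76 for TNFSF10, 0.87 for LTB probe b, 0.92 for TNF probe a and 1.01 for LTB probe a. All tested probes together read 0.25 higher there by their median. CD40 probe b was the exception, at -0.11. Which of these duplicates is nearer the true level cannot be told from a pair. The estimate of CD40 probe a was 0.98 without pH 7.4 array 1 and 0.73 without pH 7.4 array 2 (limma adjusted p = 0.136 and 0.560).

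**Figure D3:**
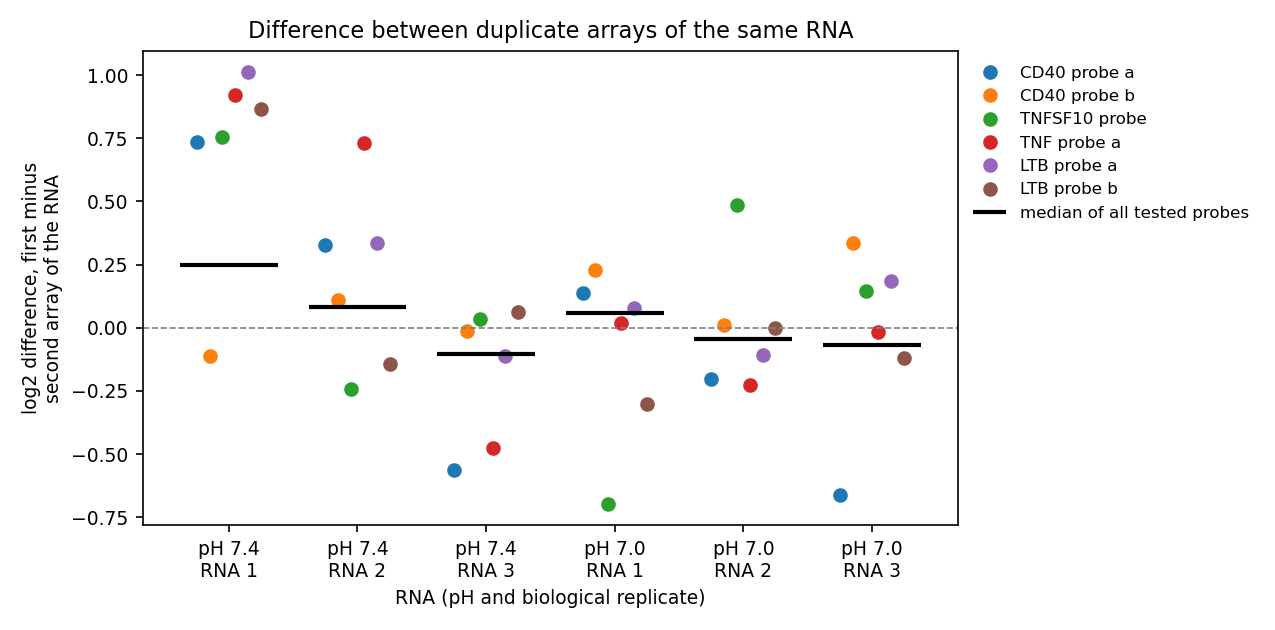
Log2 difference between the first and the second array of the same RNA (y axis) for each RNA (x axis) and each of the 6 tested member probes, with a black bar at the median of all tested probes. The pH 7.4 RNA of biological replicate 1 stands apart, with 5 member probes between 0.74 and 1.01.

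The rest of the pathway was thinly covered, because few probes could be named. Of 18 TNF superfamily ligands listed, 5 had a named probe and 4 were tested. Besides the 3 members, the tested one was EDA, ectodysplasin, a ligand of skin appendage development, at 0.074 ± 0.27 (limma adjusted p = 0.943). CD40LG, the ligand of CD40, was too dim for the test: 1 of the 6 pH 7.0 arrays and 2 of the 6 pH 7.4 arrays measured it well above background. Of 25 receptors listed, CD40 was the only one that could be named. The receptors for TNF, LTB and TNFSF10 were therefore not analysed here.

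Genes that act between the receptors and the cell's response were divided. Of 7 tested genes for receptor-associated inhibitors, caspases and BCL2 proteins, 4 were higher and 3 lower, with a median change of 0.050. Among all tested named genes 60.7% were higher. In limma 0 of the 7 passed over all probes, and 1 had an unadjusted p under 0.05, on the higher side. That side held 63 of the 598 tested named genes and 6.48% of all tested probes at this p, so 1 of 7 was near those shares. That gene was BAK1, a pore-forming protein of the mitochondrial membrane (0.78 ± 0.23, adjusted p = 0.224). BIRC3 and BIRC2 are ubiquitin ligases that bind TNF receptor complexes, and they lay on opposite sides, at 0.53 ± 0.24 and -0.41 ± 0.23 (limma adjusted p = 0.409 and 0.519). The other tested BIRC3 probe gave 0.92. BCL2L1, an inhibitor of apoptosis, was at 0.22 ± 0.23. CASP8, the caspase that death receptors activate, was at -0.0052 ± 0.24 (adjusted p = 0.995) and is named here after its value was seen. NFKB1, the only NF-kappaB subunit that could be named, was at 0.50 ± 0.23 (limma adjusted p = 0.420), and its other tested probe gave 0.33.

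Genes known to be induced through TNF receptors or CD40 were mostly higher at pH 7.0, as were 60.7% of all tested named genes. This list holds cytokine genes, and higher values of such genes at pH 7.0 were known when the lists were drawn up. Of 30 listed, 17 had a named probe and 10 were tested, of which 9 were higher and 1, CD86, lower, with a median change of 0.77. In limma 0 of them passed over all probes and 5 had an unadjusted p under 0.05, all on the higher side, where 63 of the 598 tested named genes and 6.48% of all tested probes lay. Of the 10, 3 were higher in all 3 replicates, against 18.0% of all tested probes. The 4 with the lowest p were the growth factor gene CSF2 (3.11 ± 0.38), the monocyte attractant CCL2 (1.64 ± 0.35), the neutrophil attractant CXCL8 (0.86 ± 0.30) and the gelatinase MMP9. The MMP9 probe (1.16 ± 0.41) was saturated on 6 of 12 arrays, and its other tested probes lay between 1.21 and 2.26. The fifth, named after its value was seen, was F3, tissue factor (0.60 ± 0.26). Of the 7 genes too dim for the test, IL1B, VCAM1 and CXCL12 were well above background on 0 of 12 arrays. IL1A, a cytokine of the interleukin 1 family named after its values were seen, was well above background on 5 of the 6 pH 7.0 arrays and 0 of the 6 pH 7.4 arrays. The share of all probes with such a split is not given here. Each pH 7.4 array was set to the higher of its own IL1A signal and the lowest signal of any probe called well above background there. Against that level IL1A was 1.74-fold higher at pH 7.0. That level is not a detection limit of the IL1A probe, no interval goes with the fold, and IL1A was not tested.

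Partners of CD40 in antigen presentation were also on the higher side, in 6 of 7 tested genes with a median of 0.31, where 60.7% of tested named genes were higher. Of the 7, 5 were higher in all 3 replicates, against 18.0% of all tested probes. DLA-DQA1 is counted among the 5 with a change of 0.0042 in biological replicate 3. None passed over all probes in limma, and 2 had an unadjusted p under 0.05 on the higher side. That held for 63 of the 598 tested named genes and for 6.48% of all tested probes. The 2 genes were DLA-DQA1, a chain of the dog's class II molecules (0.79 ± 0.28, adjusted p = 0.303), and the immunoproteasome subunit PSMB8 (0.68 ± 0.25, adjusted p = 0.321). A second probe of DLA-DQA1 gave 0.23. PSMB9, of the immunoproteasome too, and DLA-DRA, a chain of another class II molecule, were at 0.57 ± 0.27 and 0.31 ± 0.22. CD86, a costimulatory ligand that CD40 is known to induce in antigen-presenting cells, was at -0.29 ± 0.41 (limma adjusted p = 0.831). CD80, its relative, was well above background on 1 of 12 arrays.

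Over the 6 lists together, 23 of 29 tested genes were higher (79.3%), with a median change of 0.45, and 9 had an unadjusted limma p under 0.05 on the higher side and 0 on the lower. Among all 598 tested named genes 60.7% were higher, with a median of 0.077, and among all tested probes 51.3%, with a median of 0.012. An unadjusted limma p under 0.05 was reached by 63 named genes on the higher side and 21 on the lower, and by 1758 and 1566 of the 27136 tested probes. No test was made of these shares, and the lists hold cytokine genes whose higher values at pH 7.0 were known when they were drawn up. Of the ligands, 2 of the 4 tested were higher and 2 were lower, with a median of -0.011.

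**Figure D4:**
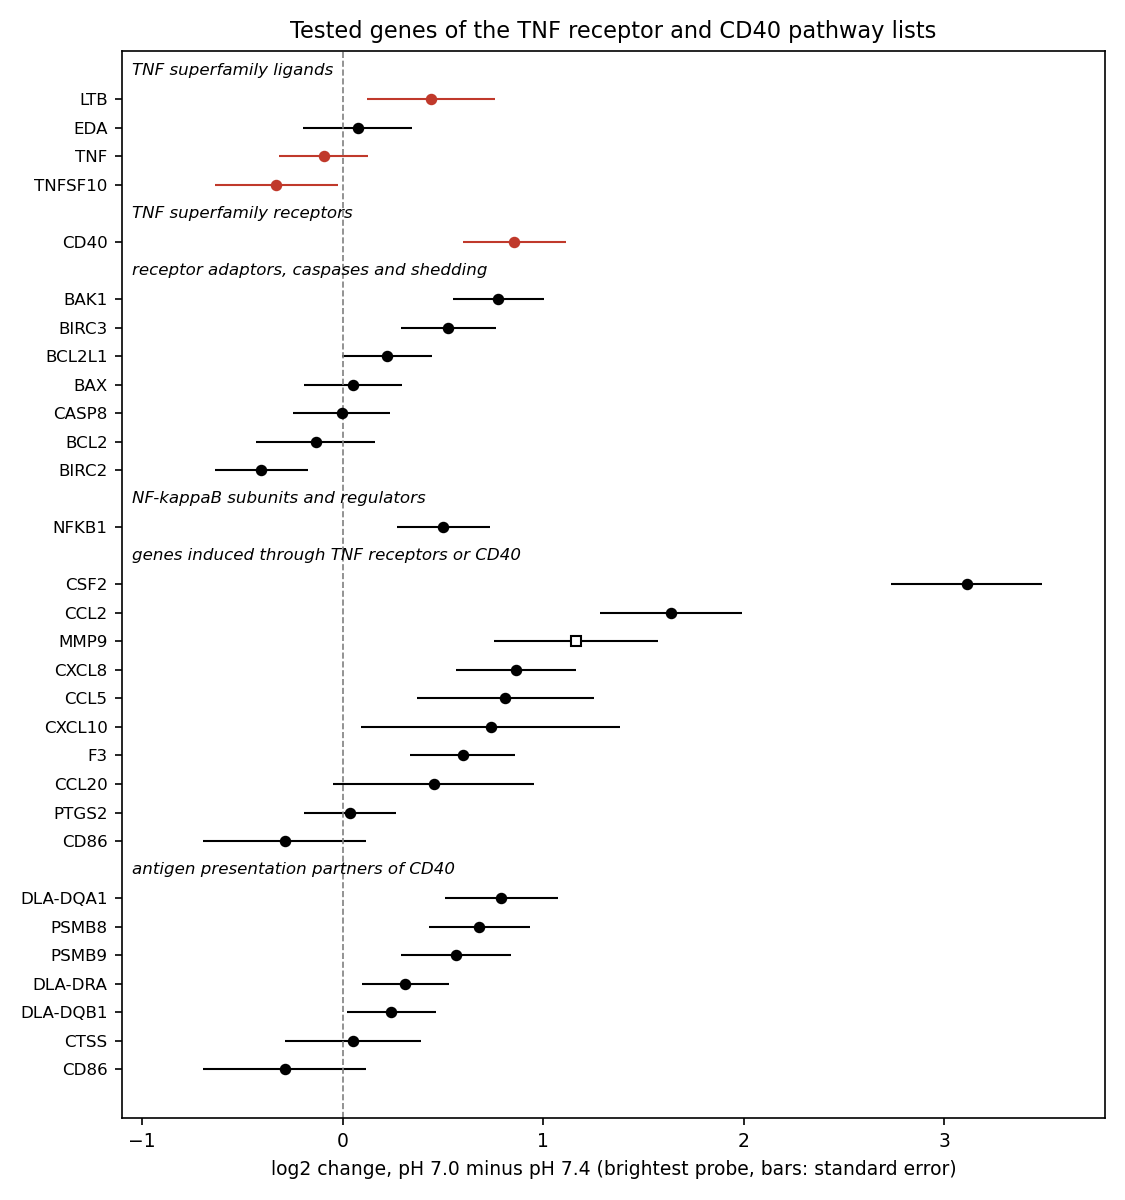
Log2 change, pH 7.0 minus pH 7.4 (x axis), with its standard error for each tested gene of the 6 pathway lists (y axis), by the brightest probe; members are in red and the open square marks a probe saturated on 6 arrays. CSF2 is farthest to the right at 3.11, CD40 stands at 0.86, and the ligands TNF and TNFSF10 lie left of 0.

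The named genes whose levels ran most like those of each member were found by Pearson's correlation over the 6 RNAs, among 594 tested named genes. The points share slides in pairs, so differences between biological replicates enter each r, and the values are a description. CD40 probe a ran most like CCL7, a monocyte attractant (r = 0.98), and MMP9 (0.94) was also among its closest 3. That MMP9 probe was saturated on 6 of 12 arrays, and its changes in biological replicates 1, 2 and 3 were 1.13, 2.51 and -0.15. CCL7 had changes of 1.52, 5.42 and 1.43 in biological replicates 1, 2 and 3, largest in biological replicate 2 as that of CD40 was. CD40 probe b ran most like CASP4, an inflammatory caspase (0.98), CDKN2B, an inhibitor of the cell cycle (0.96), and MYOZ1 (0.95). These genes were likewise higher at pH 7.0 in all 3 replicates, with estimates of 0.60, 0.37 and 0.56. All genes listed here were picked by r over the same 6 RNAs, so a shared pattern of changes follows in part from that choice. No gene was among the closest 3 of both CD40 probes.

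Both LTB probes had GNB1, a G protein subunit with an estimate of 0.10 ± 0.22, among their closest 3 (r = 0.97 and 0.98). The others were the small heat shock protein HSPB1 (0.97) and the lysosomal peptidase TPP1 (0.96) for probe a, and the nucleoside carrier SLC29A1 (0.97) and the peptide loading factor TAPBP (0.96) for probe b. Like LTB, all 5 were lower at pH 7.0 in biological replicate 1 and higher in biological replicate 2, which follows in part from picking them by r. LTB probe a also correlated with CD40 probe b at r = 0.90, although their changes differed by as much as 1.12 within a replicate. TNFSF10 had looser matches, the translocon subunit SEC61B (0.85), HPRT1 (0.84) and the desmosomal cadherin DSG3 (0.84). TNF probe a, at its low signal, ran most like GPX5 (0.97), AFP (0.94) and the potassium channel KCNA5 (0.93).

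The member probes were set against the alternatives of processing. Both CD40 probes stayed higher at pH 7.0 in each of 26 alternatives, from 0.55 to 1.07 for probe a and from 0.72 to 1.02 for probe b. The signs of the other 4 tested probes each turned in 1 to 3 alternatives. Most of those turns came from leaving out 1 biological replicate or array.

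**Figure D5:**
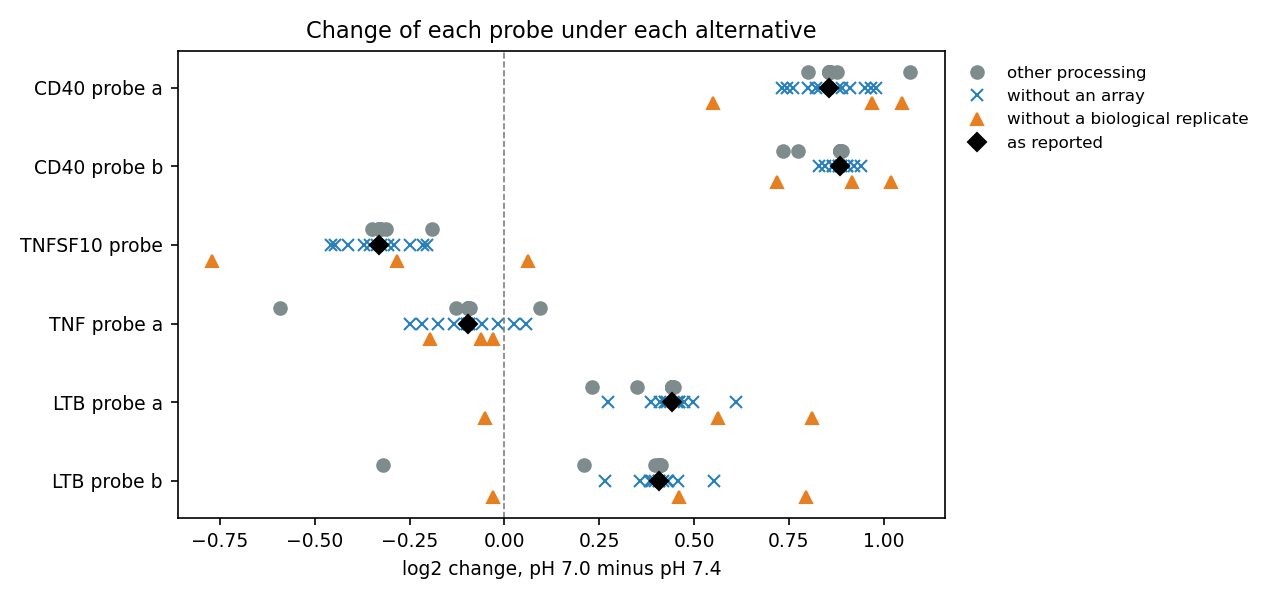
Log2 change, pH 7.0 minus pH 7.4 (x axis), of each tested member probe (y axis) as reported (black diamond), under other processing (grey), without 1 array (blue) and without 1 biological replicate (orange). The CD40 probes stay between 0.55 and 1.07, whereas the LTB, TNFSF10 and TNF probes cross 0.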

How the data were processed

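Per the labels' protocols, total RNA was labelled with Cy3, and per the submitters' processing notes the scans were read with Agilent Feature Extraction 10.7.3.1. Per the file headers, each of the 12 deposited files holds Cy3 intensity for every spot of 1 array, given as processed signals, median signals and local backgrounds, with flags, which are other values of 0 or 1. The authors' deposited value table holds log2 values of unstated scale. It matched the values below, once each probe was centred on its median, with slopes from 0.9997 to 1.0004, and its column medians ran from -0.226 to 0.226. Direction is not at issue for 1 colour.

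Control spots were left out, 128 outlier spots were set to missing, replicate spots were averaged as log2 values, and the 75th percentile of each array (410 to 944 intensity units) was subtracted. Duplicate arrays were averaged. A probe was tested where it was well above background on at least 6 of 12 arrays. The test was limma 3.58.1 in R 4.3.3 (two-sided, Benjamini-Hochberg over 27136 probes, threshold 0.05), with the biological replicate as a block, 95% intervals and 9.67 moderated degrees of freedom. Its script was tested on simulated data. Numbers 1 and 2, 3 and 4, and 5 and 6 in the array titles are the biological replicates 1, 2 and 3. Deviations from the group means correlated at 0.394, 0.637 and 0.807 within these pairs, which come from the series design. Slide, scan date and biological replicate coincided and cannot be told apart.

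The members and gene lists were chosen with earlier results of these data known. Named genes were all probes of the members, the 4 genes of lowest p in each list, and the 3 named genes most correlated with each member probe, of which 1 is not reported here. A gene of a list was represented by its brightest probe. Symbols came from RefSeq accessions matched to the annotation of UU_Cfam_GSD_1.0, which named 1484 of the 43603 probes. Precision was limited by the 3 pairs. Alternatives covered the block, duplicates, background correction (normexp on the median signals), scaling, value table, filters, prior, and leaving out replicates and arrays. No sequences were used here.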

Additional observations from a re-analysis of the deposited data

How the results depend on the processing

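Of the 26 alternatives, 25 for the dim TNF probe a, 1 changed the call of a member probe: with the 12 arrays kept apart and the RNA as a random block CD40 probe b, at 0.88, passed. In that fit technical duplicates counted largely as separate samples. Without the replicate block the estimates were the same 0.86, 0.88, 0.44, 0.41, -0.33 and -0.096 for CD40 probes a and b, LTB probes a and b, TNFSF10 and TNF, with limma adjusted p of 1.00 throughout, and the paired fit called no probe either. Signs turned for LTB probe b under normexp background correction (-0.32, where the median of all tested probes was itself at -0.19) and for TNF probe a under normexp with outlier backgrounds replaced (0.094), an alternative chosen after seeing the data. Under plain normexp TNF probe a was at -0.59. Leaving out biological replicates or arrays gave -0.25 to 0.057 for TNF probe a, -0.050 to 0.81 and -0.029 to 0.79 for LTB probes a and b, and -0.77 to 0.062 for TNFSF10. The cause of these turns was not tested beyond the arrays and replicates named.

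The count over all probes, 0 higher and 0 lower, was 396 and 294 with the RNA as a random block, 10 and 4 under normexp, 17 and 7 with the array median in place of the 75th percentile, 90 and 44 among probes well above background on all 12 arrays, and 122 and 70 with a trended, robust prior. Leaving out biological replicate 1 gave 203 and 74, and leaving out biological replicate 2 gave 200 and 447. Dropping pH 7.0 array 6 gave 10 and 5, dropping pH 7.4 array 1 gave 4 and 0, and biological replicate 3 or any other array gave 0 and 0. Of the pathway genes, 6 were lower, against 10 under normexp and 4 to 10 with replicates or arrays left out, and 0 passed, against 2 with the random block, 2 under normexp, 1 with the array median, 2 with the strict filter, and 0 to 2 with replicates or arrays left out. TNF probe a gives no value under the strict filter, and its low signal over background limits what can be said of it.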
